A study of Mus musculus with 8 samples.

Results

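The 10 genes described here encode receptor chains for the interleukins IL-6, IL-10, IL-12 and IL-27 and for interferons. They are Il6ra, Il6st, Il27ra, Il10ra, Il10rb, Il12rb1, Il12rb2, Ifngr1, Ifngr2 and Ifnar1, among the 36811 gene models of the deposited table. They were chosen by name as chains of these receptors, with earlier results of these data known. All 10 matched an Ensembl identifier in the table, and 9 passed the filter on low values, the exception being Il12rb2. Their RNA was measured in splenic regulatory T (Treg) cells of C57BL/6 mice aged 12 to 13 weeks with the genotype Foxp3EGFP-DTR Bach2tdRFP/+, which every library shares. Foxp3-GFP positive cells were sorted by the red fluorescent Bach2 reporter, carried on 1 Bach2 allele, into a HI and a LO population, with 4 libraries each, labelled F1 and F2 for females and M1 and M2 for males. The labels do not say whether a library came from 1 mouse or from a pool, nor whether the HI and LO libraries with the same label came from the same mouse, so the p-values rest on the spread among libraries, which may be technical.

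These chains work in pairs or larger sets without enzyme activity of their own: a cytokine brings the chains together, the Janus kinases bound to their tails are activated, and STAT transcription factors are phosphorylated. The chains fall into a kind that gives a receptor its specificity (Il6ra, Il27ra, Il10ra, Il12rb2, Ifngr1) and a shared or signalling kind (Il6st, which encodes gp130, Il10rb, Il12rb1, Ifngr2 and Ifnar1). In Treg cells, IL-6 is known to oppose Foxp3 induction, IL-10 to sustain suppressive function, and interferon gamma and IL-27 to drive a T-bet program.

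The genes have different promoters, and sequences are shown for those that changed between the sorted populations and for which RefSeq (build GRCm38.p6) gave an entry. Il6ra, Il6st, Il12rb2, Ifngr1, Ifngr2, Ifnar1 and the partner chain Ifnar2 had one, which is 7 of the 11 chains looked up, and Il27ra, Il10ra, Il10rb and Il12rb1 did not. The 250 bases before the annotated start are written 5′ to 3′ on the strand of the gene, with matches to the GC box GGGCGG or its reverse complement CCGCCC in capitals. Ifngr1 and Ifngr2 encode the chains of the interferon gamma receptor, and Il6ra the binding chain for IL-6.

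Ifngr1 (chr10:19591699-19591948, plus strand): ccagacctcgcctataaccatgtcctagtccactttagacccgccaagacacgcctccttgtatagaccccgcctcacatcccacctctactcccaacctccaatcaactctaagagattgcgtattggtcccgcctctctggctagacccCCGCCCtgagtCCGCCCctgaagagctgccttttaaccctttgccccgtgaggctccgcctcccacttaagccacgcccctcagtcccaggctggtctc
Ifngr2 (chr16:91546809-91547058, plus strand): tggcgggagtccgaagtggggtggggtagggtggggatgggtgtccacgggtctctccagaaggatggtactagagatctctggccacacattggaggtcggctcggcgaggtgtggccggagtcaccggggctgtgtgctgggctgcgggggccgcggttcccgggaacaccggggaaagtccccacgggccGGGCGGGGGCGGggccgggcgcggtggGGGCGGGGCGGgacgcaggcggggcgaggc
Il6ra (chr3:89913197-89913446, minus strand): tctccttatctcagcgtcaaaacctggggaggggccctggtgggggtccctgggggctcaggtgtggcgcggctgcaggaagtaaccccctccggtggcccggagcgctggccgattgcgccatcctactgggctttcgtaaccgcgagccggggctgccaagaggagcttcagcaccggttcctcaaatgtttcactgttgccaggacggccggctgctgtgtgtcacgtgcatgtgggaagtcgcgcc

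Ifngr1 held 2 GC boxes, Ifngr2 4, some of which overlap, and Il6ra 0, and 32.7% of the 32851 promoters of this length held at least 1. The G and C share was 59.2% for Ifngr1, 74.0% for Ifngr2 and 65.2% for Il6ra, against a median of 52.4% over all promoters. The 3 windows were also searched on both strands for the STAT site known as GAS (TTCNNNGAA, in 7.02% of all promoters), the interferon element ISRE (2.98%), the AP-1 element (TGANTCA, 6.75%) and the Maf recognition element to which Bach2 is known to bind (0.353%, a longer element that contains the AP-1 letters). None of these motifs occurred in the 3 windows. Among the other 4 promoters, a GAS match stood 123 bases before the start of Il12rb2 and 214 before that of Ifnar2, in capitals below with 10 bases on either side. A match is a description of these letters and no binding was measured.

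Il12rb2 (chr6:67376293-67376321, minus strand): gttcccttttTTCTCAGAAccgcactaag
Ifnar2 (chr16:91372559-91372587, plus strand): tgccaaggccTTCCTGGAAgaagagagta

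Values are FPKM, fragments scaled to transcript length and sequencing depth, so levels of different chains can be set side by side. Relative depth, read from the steps between low values with HI F1 as 1, was 0.637 to 1.27 in 7 libraries and 5.27 in LO M2, and the number of reads itself is unknown. The FPKM summed over all gene models was 1836669 to 2142813 in HI libraries and 1494240 to 1758938 in LO libraries, without overlap. The cause of this difference was not tested. Bach2 ranged from 8.62 to 20.7 FPKM in HI and from 0.447 to 0.894 in LO, as the sort labels say. Foxp3, which defines Treg cells, ranged from 13.3 to 15.2 FPKM among HI libraries and from 10.5 to 19.8 among LO libraries. Some markers of other cells differed between the populations. Of the tested genes 4 of 10 B cell, 3 of 9 myeloid and 2 of 7 dendritic markers were lower in LO, and 1 of 5 plasma cell markers, Jchain, was higher. Over all tested genes, 3.64% were lower and 4.65% higher by the same test. Of the CD8 T and NK cell markers, Eomes met the filter only through HI libraries and 0 of the other 4 tested passed. The summed plasma cell markers were at 125 to 150 FPKM in HI and 164 to 259 in LO, with Jchain at 10.8 ± 5.86 and 89.0 ± 50.4. Sdc1 (1.20 ± 1.40 and 3.83 ± 3.41) and Irf4 (3.09 ± 1.58 and 5.19 ± 1.52) also had higher means in LO. Mzb1 (9.66 ± 4.03 and 4.95 ± 2.85) and Xbp1 (112 ± 14.5 and 104 ± 21.8) had lower means in LO. Jchain alone passed, and the median log2 difference of the tested plasma cell markers was 0.64. The dendritic markers summed to 370 to 596 and 274 to 370, and the CD8 T and NK cell markers to 84.3 to 97.9 and 34.7 to 64.4. The part of such cells in the differences of the receptor chains was not tested. Differences were tested as log2(FPKM + 1), LO minus HI, with limma over 11260 genes and Benjamini-Hochberg adjustment at 0.05, and in bulk RNA a change in the share of cells and a change in RNA per cell cannot be told apart.

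Of the 9 tested chains, 3 rose in LO cells (Il12rb1, Il10ra and Ifngr1), 2 fell (Il6ra and Ifngr2) and 4 did not pass (Il6st, Il27ra, Il10rb and Ifnar1). In the comparison as a whole 8.29% of the genes tested were called, 4.65% as higher and 3.64% as lower in LO. Because the chains were chosen with earlier results of these data known, their count beside this share is no independent evidence. The median log2 difference of the 9 chains was -0.01 and that of all tested genes -0.03, and the chains moved in both directions. HI and LO libraries did not overlap for the same 5 chains of the 9, 3 with LO above HI and 2 below. Such separation was found in 15.1% of all tested genes, 7.90% with LO above and 7.18% with LO below. Without the shallowest and the deepest library, a check chosen after the data were seen, the same 5 chains were called. Upper quartile scaling of the libraries also left these 5 called. The plot of the chains by library shows these values.

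**Figure D1:**
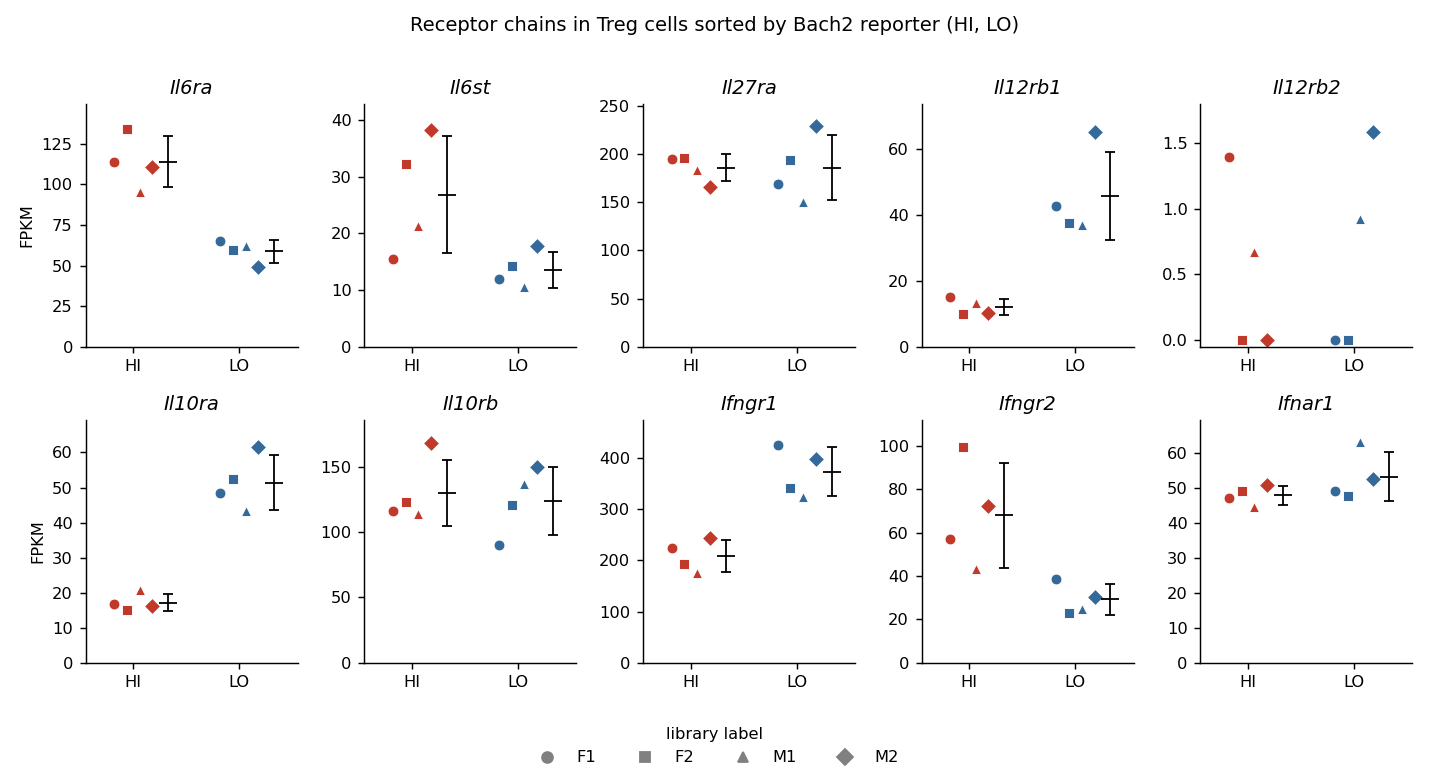
FPKM of the 10 receptor chains (vertical axes, linear) in 4 HI (red) and 4 LO (blue) libraries, with the marker shape giving the library label and black bars the mean ± SD of 4 libraries; no mean is drawn for Il12rb2, which is listed at 0 in 4 libraries. The LO points of Il12rb1, Il10ra and Ifngr1 lie above all HI points, and those of Il6ra and Ifngr2 below.

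Il6ra (ENSMUSG00000027947) encodes the chain that binds IL-6. It stood at 114, 134, 95.5 and 111 FPKM in HI F1, F2, M1 and M2, and at 65.0, 59.4, 62.3 and 49.0 in the LO libraries in the same order. Every LO library lay below every HI library, and within a population the libraries lay close together, with a coefficient of variation of 13.9% in HI and 11.8% in LO. The mean fell from 114 ± 15.8 to 58.9 ± 6.97 FPKM (SD, n = 4 each), 1.93-fold, with a log2 difference of -0.93 and a standard error of 0.165 (limma, adjusted p = 0.00676). Leaving out each library in turn kept the call, with limma adjusted p from 0.00904 to 0.0267. Some B cell markers were lower in LO as well: the summed FPKM of the list was 430 to 782 in HI and 256 to 706 in LO, with Cd79a between 37.2 and 73.1 in HI and between 3.24 and 5.81 in LO, and Pax5 at 0 in HI M1 and in the 4 LO libraries. The myeloid sum was 280 to 512 in HI and 128 to 312 in LO. Both sums overlapped between the populations, and H2-Ab1 alone stood at 226 to 500 FPKM in HI and 150 to 599 in LO. Every tested B cell marker had a negative log2 difference, with a median of -1.54. Of these, Bank1 (-1.75), Blnk (-1.34), Cd79b, Cd22, Ebf1 and H2-Ab1 did not pass. The median of the tested myeloid markers was -1.03. Among them only Itgam (log2 difference 1.25) and Cybb (0.60) had higher means in LO, without passing.

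Il6st (ENSMUSG00000021756) encodes gp130, the signalling chain that IL-6 and IL-27 share with other cytokines. It stood at 15.5, 32.2, 21.3 and 38.2 FPKM in HI F1, F2, M1 and M2, and at 11.9, 14.3, 10.5 and 17.7 in LO. The populations overlapped, since LO M2 exceeded HI F1, and HI had a coefficient of variation of 38.3%, the widest of the 9 tested chains in HI. The means were 26.8 ± 10.3 and 13.6 ± 3.15 FPKM, and the log2 difference of -0.87, with a 95% interval of -1.57 to -0.18, did not pass (limma, adjusted p = 0.135). In each population the libraries numbered 2 were above those numbered 1, at 32.2 to 38.2 against 15.5 to 21.3 in HI and 14.3 to 17.7 against 10.5 to 11.9 in LO. The immediate early gene Fos was split by the same numbers in the opposite direction, at 442 to 1520 in HI libraries numbered 1 and 23.6 to 46.0 in those numbered 2, and at 441 to 1450 and 20.8 to 28.9 in LO. When the library number entered the limma fit, an alternative added after the values were known, Il6st passed with the same log2 difference (adjusted p = 0.0453). The log2 difference was -0.65 within number 1 and -1.09 within number 2, and what the number stands for is not given in the labels.

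Il27ra (ENSMUSG00000005465) encodes the chain that pairs with gp130 to form the IL-27 receptor. It was the second highest of the 10 chains in both populations, at 195, 196, 184 and 166 FPKM in HI F1, F2, M1 and M2 and at 169, 194, 150 and 229 in LO. The means were 186 ± 13.9 and 186 ± 34.0 FPKM, and the log2 difference of -0.01 had a 95% interval of -0.37 to 0.34 (limma, adjusted p = 0.973). The populations overlapped, and the sign of the difference turned under quantile normalization (0.04) and upper quartile scaling (0.02).

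Il12rb1 (ENSMUSG00000000791) encodes the chain that the receptors for IL-12 and IL-23 share. It stood at 15.1, 9.82, 13.3 and 10.4 FPKM in HI F1, F2, M1 and M2, and at 42.7, 37.7, 37.1 and 65.3 in LO. The LO values were above all HI values, with the deepest library, LO M2, apart from the other 3. The mean rose from 12.1 ± 2.47 to 45.7 ± 13.3 FPKM, 3.76-fold, with a log2 difference of 1.81 and a standard error of 0.25 (limma, adjusted p = 0.002). Without LO M2 the log2 difference was 1.63, the lowest of the 8 fits that left out 1 library.

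Il12rb2 (ENSMUSG00000018341), the chain that completes the IL-12 receptor and recruits STAT4, was near the limit of these libraries. It was listed at 1.39 FPKM in HI F1, 0.67 in HI M1, 0.924 in LO M1 and 1.58 in LO M2, and at 0 in the other 4 libraries, 2 of each population. The populations overlapped, the gene did not pass the filter and it was not tested. A difference was not detectable at this depth. Il23r, which pairs with Il12rb1 for IL-23, was listed at 0 in 5 libraries and did not exceed 0.594 FPKM elsewhere. Il12rb1 was therefore measured at 37.1 to 65.3 FPKM in LO cells beside values of at most 1.58 for both of its partner chains.

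Il10ra (ENSMUSG00000032089) encodes the chain that binds IL-10. It stood at 16.7, 15.1, 20.7 and 16.1 FPKM in HI F1, F2, M1 and M2, and at 48.3, 52.3, 43.3 and 61.7 in LO. The lowest LO value, 43.3, lay above the highest HI value, 20.7. The mean rose from 17.1 ± 2.46 to 51.4 ± 7.80 FPKM, 3-fold, with a log2 difference of 1.53 and a standard error of 0.196 (limma, adjusted p = 0.0013). It had the smallest p of the 9 tested chains, and leaving out each library in turn gave limma adjusted p from 0.00266 to 0.00693.

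Il10rb (ENSMUSG00000022969) encodes the second chain of this receptor, which the receptors for IL-22 and type III interferons also use. It stood at 116, 123, 114 and 168 FPKM in HI F1, F2, M1 and M2 and at 89.8, 121, 137 and 150 in LO, with overlapping populations. Its log2 difference of -0.07 had a 95% interval of -0.52 to 0.37 (limma, adjusted p = 0.883). In every library Il10rb was the more abundant of the 2 chains per length.

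Ifngr1 (ENSMUSG00000020009) encodes the binding chain of the interferon gamma receptor and was the highest of the 10 chains in both populations. It stood at 224, 193, 176 and 244 FPKM in HI F1, F2, M1 and M2, and at 426, 341, 324 and 399 in LO. Every LO value lay above every HI value. The mean rose from 209 ± 30.8 to 373 ± 47.9 FPKM, 1.78-fold, with a log2 difference of 0.83 and a standard error of 0.154 (limma, adjusted p = 0.00866).

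Ifngr2 (ENSMUSG00000022965), the signalling chain of the same receptor, went the other way. It stood at 57.2, 99.7, 43.1 and 72.1 FPKM in HI F1, F2, M1 and M2, and at 38.7, 23.1, 25.0 and 30.1 in LO. The LO libraries lay below the HI libraries, with LO F1 close to HI M1. The mean fell from 68.0 ± 24.2 to 29.2 ± 6.97 FPKM, 2.33-fold, with a log2 difference of -1.15 and a standard error of 0.276 (limma, adjusted p = 0.0302). This call was the least firm of the 5. It was lost without HI F1, HI F2, HI M2, LO F2, LO M1 or LO M2 (limma, adjusted p = 0.0567 to 0.0872), under quantile normalization (0.0504) and without the filter (0.0529), and the log2 difference was -0.66 within number 1 and -1.65 within number 2. The marker values given beside Il6ra apply here too.

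Ifnar1 (ENSMUSG00000022967), a chain of the receptor for type I interferons, had a coefficient of variation of 5.59% in HI and 13.2% in LO. It stood at 47.3, 49.3, 44.6 and 50.9 FPKM in HI F1, F2, M1 and M2 and at 49.2, 47.8, 63.4 and 52.8 in LO. The log2 difference of 0.14 had a 95% interval of -0.22 to 0.50 (limma, adjusted p = 0.687). Its partner Ifnar2 stood at 109 to 155 FPKM in HI and 168 to 212 in LO without overlap, and its log2 difference of 0.52 did not pass (limma, adjusted p = 0.0873).

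The order of the levels differed between the populations. With the partner Ifnar2 included, Ifngr1 and Il27ra led in HI cells, followed by Il10rb, Ifnar2, Il6ra, Ifngr2, Ifnar1, Il6st, Il10ra, Il12rb1 and Il12rb2. Neighbours down to Ifnar1 overlapped in their library values, as did Il6st and Il10ra, while Ifnar1 and Il6st, and Il10ra and Il12rb1, did not. In LO cells Ifngr1 stood without overlap above Il27ra and Ifnar2, which overlapped, and Il10rb came below them. Il6ra, Ifnar1, Il10ra and Il12rb1 followed at means of 58.9, 53.3, 51.4 and 45.7 FPKM, each overlapping the next. Il12rb1 also overlapped Ifngr2, below which came Il6st and Il12rb2.

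Within a library, the ratio of the FPKM of paired chains shows how the makeup of a receptor's RNA differed. For Ifngr1 over Ifngr2 the ratio was 3.91, 1.93, 4.07 and 3.39 in HI F1, F2, M1 and M2, and 11, 14.8, 13 and 13.3 in LO. For Il10ra over Il10rb it was 0.143, 0.123, 0.181 and 0.0955 in HI and 0.538, 0.431, 0.316 and 0.412 in LO. Neither ratio overlapped between the populations: the interferon gamma receptor's RNA held a larger excess of its binding chain in LO cells, and the IL-10 receptor's RNA a smaller excess of its shared chain. The ratio of Il27ra over Il6st was 12.6, 6.1, 8.63 and 4.36 in HI F1, F2, M1 and M2, and 12.9 to 14.4 in LO. In HI this ratio was higher in the libraries numbered 1, and HI F1 lay close to the LO libraries. For Il6ra over Il6st it ranged from 2.92 to 7.35 in HI and from 2.77 to 5.94 in LO, and for Ifnar1 over Ifnar2 0.305 to 0.436 and 0.226 to 0.377, so these populations overlapped.

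On the log2(FPKM + 1) scale, 6 such pairs were compared by exact permutation, two-sided, of 4 against 4 libraries, which cannot go below 0.0286. The LO minus HI difference in log2 ratio was 1.99 for Ifngr1 over Ifngr2, 1.60 for Il10ra over Il10rb and 0.86 for Il27ra over Il6st (each exact p = 0.0286, adjusted over the 6 pairs 0.0429). The value for Il27ra over Il6st repeats the difference of Il6st (-0.87), which did not pass by itself, since Il27ra had -0.01. Likewise, the value for Il10ra over Il10rb largely repeats the rise of Il10ra (1.53), since Il10rb had -0.07. Il12rb2 over Il12rb1 gave -1.73 at the same p, but with Il12rb2 at or near 0 in every library this value repeats the rise of Il12rb1, and with a pseudocount of 0.1 its adjusted p was 0.274 in the exact test. The adjusted p of the other 3 depends on how this pair is counted: it is 0.0476 over the 5 pairs without it, an alternative added after the values were known, and 0.0571 where the pair is kept and does not reach the smallest exact p. The pairs Il6ra over Il6st (-0.06, exact p = 0.857) and Ifnar1 over Ifnar2 (-0.38, exact p = 0.143) did not pass. With a pseudocount of 0.1, Il12rb2 over Il12rb1 did not reach the smallest exact p, which is the case of 0.0571, and none of the 6 pairs passed. Ifngr1 over Ifngr2, Il10ra over Il10rb and Il27ra over Il6st then had differences of 2.01, 1.65 and 0.90.

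**Figure D2:**
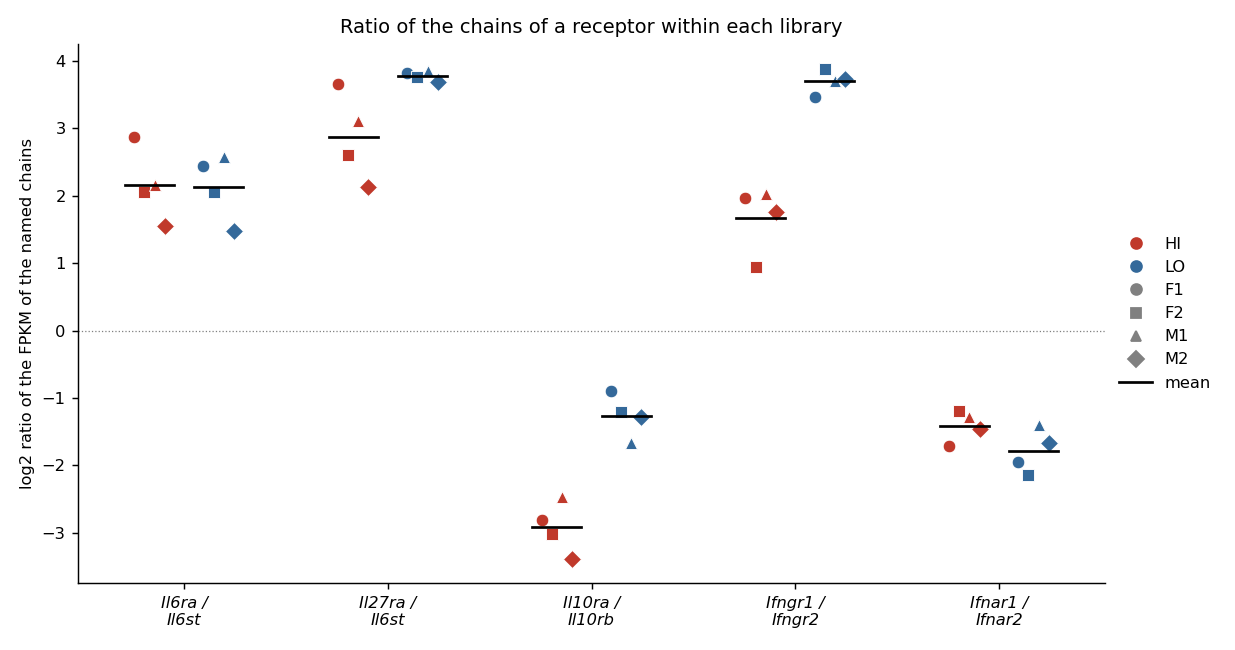
Ratio of the FPKM of paired receptor chains (vertical axis, log2) in each HI (red) and LO (blue) library for 5 receptors, with the marker shape giving the library label and black lines the mean of 4 libraries; Il12rb2 over Il12rb1 is left out because Il12rb2 is listed at 0 in 4 libraries. LO points lie above HI points for Ifngr1 over Ifngr2, Il10ra over Il10rb and Il27ra over Il6st, and overlap for the other pairs.

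The 5 called chains differed in the same direction in the libraries labelled female and male. The LO minus HI log2 difference in females and in males was -0.98 and -0.89 for Il6ra, 1.64 and 1.98 for Il12rb1, 1.61 and 1.45 for Il10ra, 0.87 and 0.79 for Ifngr1, and -1.31 and -1 for Ifngr2. In a limma fit of the interaction of sex and reporter level, 0 of the 9 chains were called, 0 had an unadjusted p below 0.05, and the adjusted p was 0.999 for each. Over all genes 2 were called (0.0178%), and 3.83% had an unadjusted p below 0.05. With 2 libraries per sex and population the intervals are wide, the standard error of the difference between sexes being 0.354 for Il6ra and 0.585 for Ifngr2.

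Ifnar2, Il10rb, Ifnar1 and Ifngr2 lie next to each other, in this order, among the protein-coding genes of chromosome 16, in the RefSeq annotation of GRCm38.p6. The values of these neighbours differed: Ifnar2 had a log2 difference of 0.52, Il10rb of -0.07, Ifnar1 of 0.14 and Ifngr2 of -1.15. Of these 4 chains, Ifngr2 was the 1 called. The 4 protein-coding genes on either side were read too. Next to Ifngr2, Tmem50b had a log2 difference of 0.01 (limma, adjusted p = 0.996), and farther out Gart, a purine synthesis enzyme, stood at -0.64 (limma, adjusted p = 0.0901). Olig1 and Olig2, neural transcription factors before Ifnar2, were listed at 0 in all libraries.

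**Figure D3:**
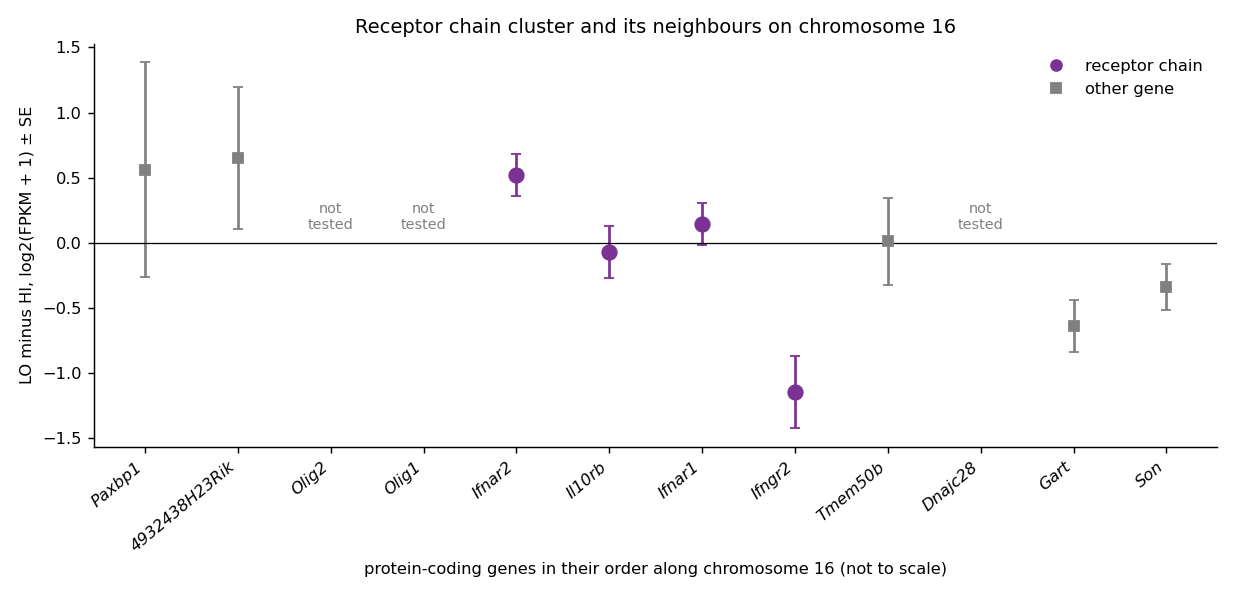
LO minus HI difference in log2(FPKM + 1) (vertical axis, points, with the standard error as bars) of the receptor chains on chromosome 16 (circles) and of the 4 protein-coding genes on either side (squares), in their order along the chromosome and not to scale. Ifngr2 lies at -1.15 and its neighbours Ifnar1 and Tmem50b at 0.14 and 0.01; genes that did not pass the filter are marked as not tested.

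Other chains of these receptor families were mostly not seen. Of 15 listed chains, 9 were at 0 in every library, among them Osmr, Lepr and Ifnlr1, and 2 were tested, Ifnar2 and Il11ra1, of which 0 rose and 0 fell (limma; neither had an adjusted p below 0.05). Il11ra1, the binding chain for IL-11, was at 3.71, 1.45, 18.4 and 0 FPKM in HI F1, F2, M1 and M2 and at no more than 1.66 in LO, so its HI values rest on M1. Lifr, which joins gp130 in the receptor for leukemia inhibitory factor, was at no more than 0.74 in any library.

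Downstream of the receptors, 0 of 11 Janus kinase and STAT genes were called with limma, and their median log2 difference was 0.20. Over all tested genes 8.29% were called, so with 11 genes a count of 0 is near that share. Jak1, the kinase bound by Il10ra, Ifngr1 and gp130, stood at 375 ± 84.3 FPKM in HI and 341 ± 77.5 in LO. Tyk2, bound by Il12rb1, Il10rb and Ifnar1, ranged from 13.2 to 20.8 FPKM in HI libraries and from 21.4 to 40.8 in LO libraries without overlap, and did not pass (log2 difference 0.80, limma adjusted p = 0.0953). Jak2, bound by Ifngr2 and Il12rb2, ranged from 1.26 to 4.34 in HI libraries and from 5.53 to 6.34 in LO libraries and did not pass either (limma, adjusted p = 0.219). Stat3 and Stat4 had log2 differences of 0.26 and 0.20 with limma adjusted p of 0.439 and 0.641.

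Of 15 genes for feedback and receptor shedding, 2 fell and 0 rose in LO cells, with a median log2 difference of -0.23. The shares over all tested genes were 3.64% lower and 4.65% higher. Usp18, which blocks signalling at the Ifnar2 chain, fell from 67.4 ± 11 to 33.8 ± 4.50 FPKM, a log2 difference of -0.97 (limma, adjusted p = 0.00959). Ptpn6, the phosphatase SHP-1, fell from 291 ± 15.0 to 197 ± 35.4 FPKM, a log2 difference of -0.58 (limma, adjusted p = 0.0452), a call lost in 15 of the 21 alternatives. These included each fit without 1 of the 7 libraries other than LO M2 (limma, adjusted p = 0.0705 to 0.114), sex as a covariate (0.0716), quantile normalization (0.0792), no filter (0.0572) and no trend (0.128). Socs3, the inhibitor that binds gp130, was at 39.1, 56.3, 94.2 and 44.0 FPKM in HI F1, F2, M1 and M2 and at 31, 18, 26.4 and 28.8 in LO, and missed the threshold (log2 difference -1.08, limma adjusted p = 0.0538). It passed under quantile normalization (limma, adjusted p = 0.0476), upper quartile scaling (0.0467), the filter of 5 FPKM (0.0497) and without HI F1 (0.0486). Leaving out each library in turn gave limma adjusted p up to 0.139. Socs1, which inhibits the interferon gamma receptor, ranged from 40.1 to 110 FPKM among HI libraries and from 24.2 to 35.8 among LO libraries (limma, adjusted p = 0.0715). Socs1 passed under upper quartile scaling (limma, adjusted p = 0.0491), and leaving out each library in turn gave 0.0344 to 0.156. Adam10 and Adam17, proteases that shed Il6ra, did not pass (limma, adjusted p = 0.212 and 0.629).

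**Figure D4:**
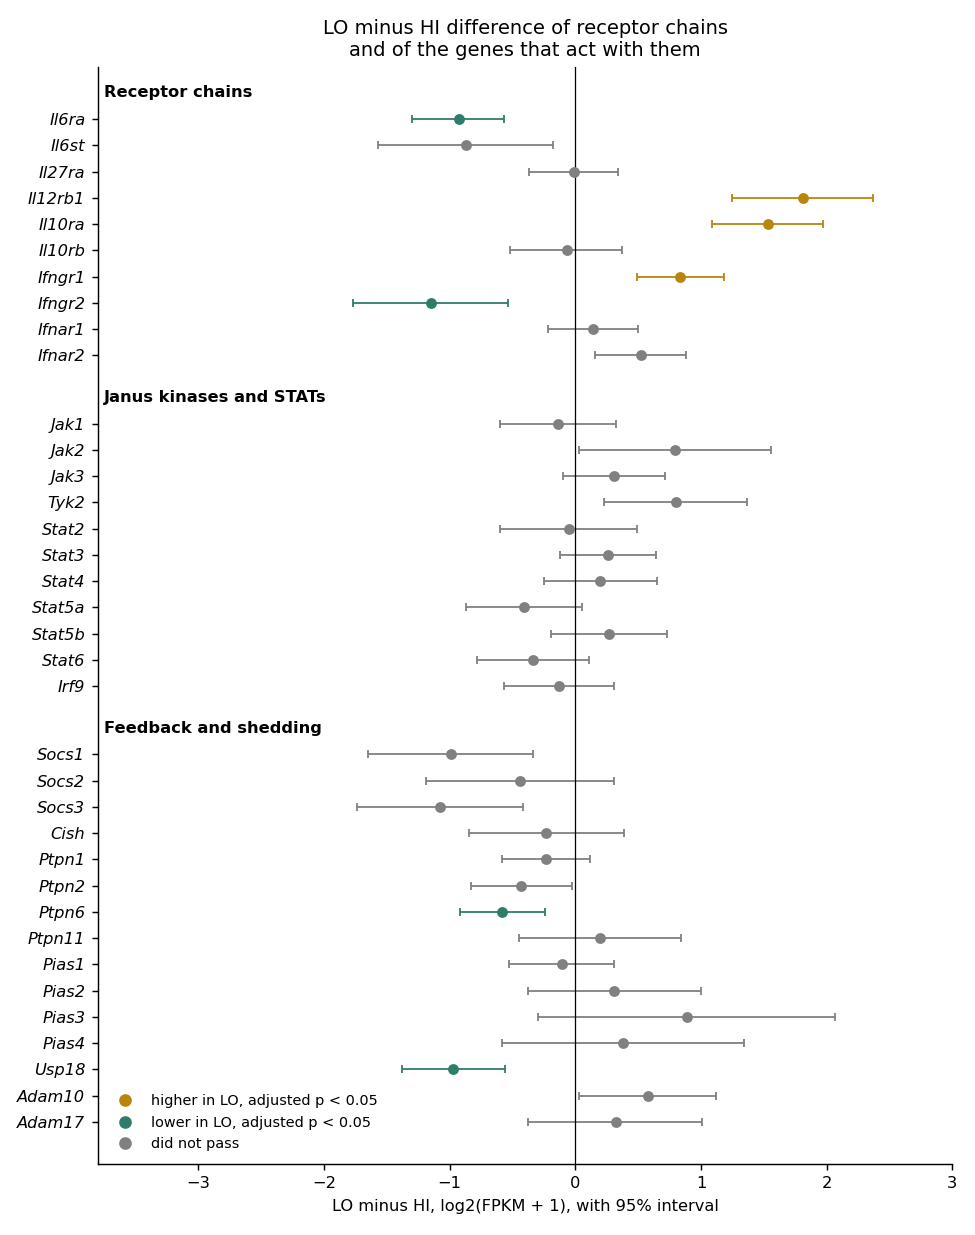
LO minus HI difference in log2(FPKM + 1) (horizontal axis, points, with 95% intervals as bars) of the tested receptor chains with Ifnar2, of Janus kinases and STATs, and of feedback and shedding genes. Coloured points had a limma adjusted p below 0.05: 3 chains higher in LO, and Il6ra, Ifngr2, Ptpn6 and Usp18 lower.

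Most ligands of these receptors were not seen in the sorted cells. Of 19 ligand genes, 11 were at 0 in every library, among them Il6, Il12a, Il12b and Ifnb1, and 5 were tested. Il10 met the filter only through the LO libraries where it is high, so it had to differ and its value is a description. Of the other 4 tested ligands 1 rose, Ebi3, and 0 fell, against 4.65% and 3.64% of all tested genes. Il10 had the value 0 in every HI library, and in LO F1, F2, M1 and M2 it stood at 15.8, 1.31, 2.15 and 5.92 FPKM. Ebi3, the subunit that IL-27 shares with IL-35, rose from 23.1 ± 9.05 to 94.1 ± 40.3 FPKM, a log2 difference of 1.98 (limma, adjusted p = 0.00582), while Il27, its partner in IL-27, was at 0 in 7 libraries. Ifng reached 9.49 FPKM in HI and 40.6 in LO, with LO F1 highest and 1 library of each population at 0 (limma, adjusted p = 0.602).

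The known targets of these pathways were counted on lists that hold genes other factors also control. Leaving out Il10, 5 of 10 tested STAT3 target genes rose and 0 fell, with a median log2 difference of 1.04, among them Batf (96.7 ± 11.2 to 277 ± 16.7 FPKM), Rora, Maf and Prdm1. Of 12 tested genes of the T-bet program 6 rose and 0 fell, with a median of 2.16. Cxcr3, its chemokine receptor, rose from 37.1 ± 7.54 to 411 ± 107 FPKM and Il18r1, a chain of the IL-18 receptor, from 10.7 ± 2.75 to 42.6 ± 10.8. Of 25 tested interferon response genes, 1 rose (Oas1a, 14.2 ± 4.83 to 51.0 ± 14.1 FPKM) and 1 fell (Usp18), with a median of 0.30. Over all tested genes 4.65% rose and 3.64% fell, and the interferon response counts lay near these shares. Members of these lists were partly known to differ between these populations when the lists were made, so the counts are no independent evidence.

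Genes whose pattern over the 8 libraries was most like a called chain were searched among 7805 protein-coding genes, by Pearson correlation of log2(FPKM + 1), as a description in which the difference between the populations sets most of the likeness. Closest to Il6ra were Herc3 (r = 0.986) and Gsta4 (0.975), and closest to Ifngr2 Cdk19 (0.97) and Txn2 (0.962). Il10ra was most like Igflr1 (0.996) and Lsp1 (0.993), Il12rb1 like Penk and Zcchc18 (both 0.987), and Ifngr1 like Mvp (0.985) and Sec11c (0.984).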

How the data were processed

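RNA of sorted splenic Treg cells was measured by SmartSeq2 libraries on an Illumina sequencer, per the labels' protocols. The submitters' processing notes name FastQC, cutadapt, HISAT2 and the builds NCBIM37 and mm9. The authors deposited FPKM per Ensembl gene model in a Cuffnorm table, and the sources used here do not give its scaling or annotation. The series' design text describes other cells and was not used. Symbols matched 31840 of 36811 identifiers through GENCODE names, and sequences come from RefSeq. Genes with FPKM of at least 1 in 4 or more of 8 libraries were tested, 11260 in all, as log2(FPKM + 1) with limma 3.58.1 (R 4.3.3, empirical Bayes with trend) and Benjamini-Hochberg adjustment at 0.05. The pseudocount understates fold changes of low genes. The reporter by sex interaction was fitted likewise, and chain ratios were tested with scipy 1.17.1. The code was tested on simulated data. The alternatives tried were other pseudocounts, filters and scalings, other empirical Bayes settings, sex or label as covariates, and leaving out libraries. The receptor chains and all gene lists were chosen with earlier results of these data known. The text names every chain, Bach2, Foxp3, set Janus kinases, STATs and SOCS genes, up to 4 genes of smallest p per list, and the 2 genes most like each called chain. Markers, neighbours and genes named as absent were added after their values were seen. Depth in reads is unknown, and relative depth rests on ratios within 1% of a step, 14.3% to 37.2% of those compared per library. The lists of Treg genes gave 3 higher (Ikzf2, Ctla4 and Tnfrsf18) and 1 lower (Il2ra) of 9, against 4.65% and 3.64% of all tested genes. A gene of the signalling and response lists is not reported here.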

Additional observations from a re-analysis of the deposited data

Results flagged for a closer look

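Il10rb stood apart in 1 library. Its level in HI M2 was 168 FPKM while the other 3 HI libraries lay at 114 to 123, so that the gap was 0.848 of the range of the 4 values, above the critical value of Dixon's test at 95%. In all, 34 groups of 4 libraries were looked at, and chance marks about 1 in 20 such groups. Without HI M2 the log2 difference of Il10rb, LO minus HI, was 0.05.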

How the results depend on the processing

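Of the receptor chains, 5 were called, and 4 to 6 were called under every alternative other than the fits within library numbers, where number 1 gave 0 and number 2 gave 1 (Il10ra), each with 2 libraries against 2. The value 4 came from the loss of Ifngr2 and the value 6, with the library number as a covariate, from the addition of Il6st. The interaction gave 0 throughout. Leaving out each library gave 4 to 5 called chains. The replicate block by label (F1, F2, M1, M2) gave 4 called chains (Ifngr2 had a limma adjusted p of 0.0583) and 0 in the interaction. Whether same-labelled libraries are pairs is not stated. Their deviations correlated at 0.015 to 0.113, all above 0 but not each above 0.1, and 3 of the 4 HI libraries correlated best with their own label, while HI F2 did so with LO F1 (0.031). Chain ratios passing went from 4 of 6 to 0 with a pseudocount of 0.1, and 3 passed when adjusted over the 5 other than Il12rb2 over Il12rb1. In 3 against 4 libraries the exact p cannot go below 0.0571, nor with the replicate block below 0.125, so only values were compared. Of the values that changed sign, none was past the threshold: Il27ra gave 0.04 with quantile normalization, 0.02 with upper quartile scaling, 0.22 within number 2, and -0.12 to 0.08 when libraries were left out. Il10rb then gave -0.17 to 0.07 and Foxp3 -0.13 to 0.15, with -0.26 within number 2. Within number 1, Stat3 gave -0.08 and Stat4 -0.04. The cause of these changes was not tested. Values near 0 FPKM, such as Il12rb2, are limited by depth.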
